A study of Mus musculus with 3 samples.

Results

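Calcium channels, calcium pumps and force-gated channels were described here as 1 group of genes in the muscle stem cells (satellite cells) of mouse hindlimb. The group was chosen by gene symbol and not by measured level: it holds the TRP channels of the A, C, M and V subfamilies, Piezo1 and Piezo2, the STIM and ORAI proteins, the ryanodine and inositol trisphosphate receptors, the calcium ATPases, the subunits of voltage-gated calcium channels, and the calsequestrins. It comprises 73 of the 20308 genes in the deposited table. The symbol pattern also caught Trpc4ap, which encodes a binding partner of a TRP channel and not a channel, and without it 72 members remain. Several gamma subunit genes are likewise named as calcium channel subunits but are better known as partners of glutamate receptors, and they are kept under their symbols.

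The samples were ZsGreen-positive cells sorted from Pax7-ZsGreen mice aged 3 months, in which a green fluorescent reporter follows Pax7, the transcription factor that marks satellite cells. Muscle from several animals was digested with enzymes and about 200000 positive cells were sorted per sample, and 3 libraries (replicates 1 to 3) were measured. All 3 belong to the same genotype, age and cell type, with no treated or control group, so levels and their spread can be described but no condition can be compared. The labels name the tibialis anterior as tissue and the series description names hindlimb muscles. Neither says whether the replicates came from separate animal pools, so the limma p-values reflect no more than library-to-library spread, which may be technical. For each gene limma combines its own spread with that of other genes of similar level. A p-value, and a call lost without a replicate, is therefore not set by the gene's own replicates alone. Values are TPM, each gene's share of all measured transcripts, corrected for transcript length and scaled to the same total in each library, and are given as mean ± SD (n = 3) or library by library. Depth is unknown, because TPM keeps no read totals, and a 0 may stand for an estimate that failed.

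Calcium ions act as a signal because cells hold them very low in the cytosol and high outside the cell and inside the endoplasmic reticulum. Pumps maintain that gradient, channels release it, and when the store empties STIM proteins of the reticulum open ORAI pores in the plasma membrane (store-operated entry). In adult muscle fibres the voltage sensor Cacna1s and the release channel Ryr1 couple excitation to contraction, and the pump Atp2a1 returns calcium to a store buffered by Casq1. Satellite cells lie between the fibre membrane and its sheath, where stretch and pressure can act on force-gated channels such as the Piezo proteins.

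The labelled cell type was checked against marker lists. All 14 satellite cell markers lay above 1 TPM, summing to between 8327 and 8828 TPM per library. Markers of other cells were also present: 10 of 10 endothelial genes (210 to 320 TPM per library), 6 of 9 fibro-adipogenic genes (2168 to 2456 TPM), 7 of 15 mature fibre genes (290 to 484 TPM), 5 of 9 pericyte and smooth muscle genes (244 to 296 TPM), 5 of 11 leukocyte genes (262 to 364 TPM), 4 of 7 Schwann cell genes (156 to 252 TPM), 2 of 6 erythroid genes (139 to 453 TPM) and 1 of 6 neuronal genes (160 to 182 TPM) passed the same test. Over the whole table, 38.4% of all genes and 60.8% of the genes tested passed it, so a count near these shares does not show a cell type. The neuronal gene was Map2, while Rbfox3 was listed at 0 in all libraries, as were Myh2 among fibre markers and Cd3e among leukocyte markers. The highest fibro-adipogenic genes were Gsn (888 ± 104 TPM), Col3a1 (585 ± 29.9 TPM) and Dpt (572 ± 16.7 TPM). Pdgfra (4.98, 0.11 and 0.06 TPM), Lum and Pi16 on that list were not decided, meaning that the test gave no call. In a bulk sample, fewer cells of a type and less RNA per cell cannot be told apart.

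The group as a whole was a small, top-heavy share of the transcriptome. Its 73 genes summed to 1412, 1469 and 1360 TPM in replicates 1 to 3, or 0.141% ± 0.00546 of all TPM. The 2 highest members, the store pump Atp2a2 and the plasma membrane pump Atp2b1, held 55.5% ± 2.51 of that sum. Members averaging at least 100 TPM numbered 3, those of at least 10 TPM 17, while 23 had a value of 0 in each of the 3 libraries.

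Each gene above 0 in at least 1 library was tested against a level of 1 TPM with limma over all 12822 such genes, with Benjamini-Hochberg adjustment. Of the 50 members tested, 23 were called above 1 TPM, 2 were called below, and for 25 the test gave no call (not decided). The background was 60.8% of all genes tested called above and 2.18% called below, against 46.0% of the members tested called above. Counted over every gene in the table, 38.4% were called above, and 31.5% of the 73 members. The median of the members tested was 4.80 TPM, and that of all genes tested was 11.5 TPM. The share listed at 0 throughout was 31.5% of members and 36.9% of all genes, and this difference was not tested. By role, the plot of calls shows 6 of 9 pumps (8 of them tested), 3 of 5 store-operated proteins and 4 of 6 release channels above 1 TPM. The last 2 shares lie near the 60.8% of all genes tested. The share of the 9 pumps is no higher than that of the release channels. Of 22 TRP channels 2 were above, and of 26 voltage-gated genes 4, beside 38.4% of every gene in the table. No difference between a role and the table was tested.

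**Figure D1:**
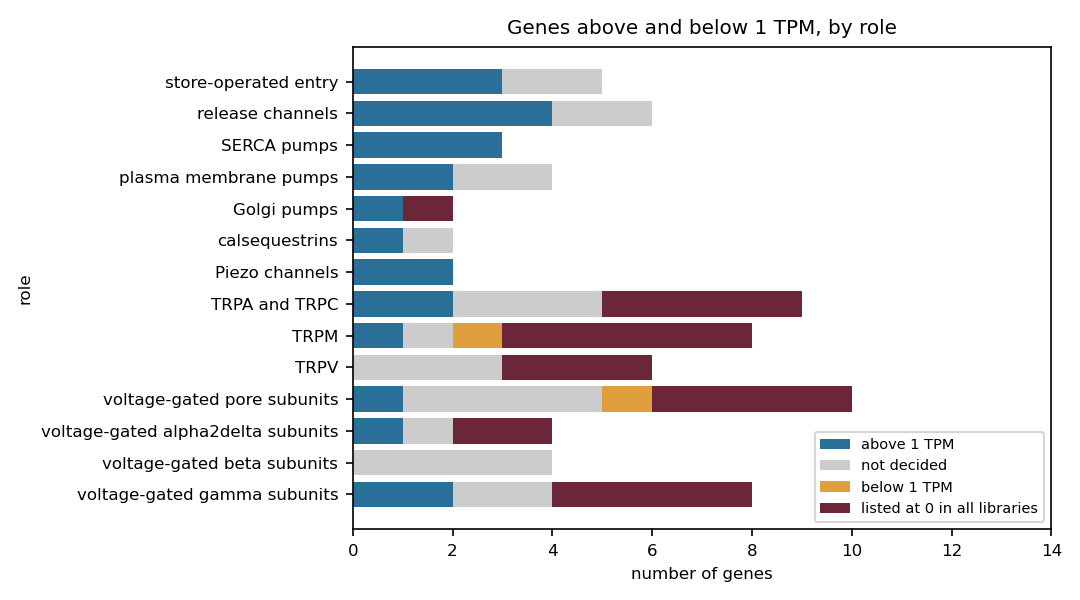
Number of genes (x axis) above 1 TPM, not decided, below 1 TPM or listed at 0 in all 3 libraries, for each of 14 roles (y axis). The 3 SERCA pumps and the 2 Piezo channels were all above 1 TPM, while the TRPV channels and the voltage-gated beta subunits had 0 members above it.

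Promoter sequences are shown for 6 members because they span the range from an abundant pump to channels listed at 0, and from windows dense in CG dinucleotides to windows nearly without them. Each is the 150 bases directly before a RefSeq transcript start, 5′ to 3′ on the gene's strand in GRCm38.p6, with CG dinucleotides in capitals, and no annotated GENCODE M21 exon overlaps it. Atp2b1 (325.9 TPM) lies at chr10:98915002-98915151 on the plus strand and Piezo1 (146.9 TPM) at chr8:122551330-122551479 on the minus strand. Trpm7 (46.8 TPM) lies at chr2:126876262-126876411 on the minus strand and Casq2 (5.94 TPM) at chr3:102086265-102086414 on the plus strand. Trpm3, at chr19:22138896-22139045, and Trpm1, at chr7:64153685-64153834, both on the plus strand, were listed at 0.
Atp2b1: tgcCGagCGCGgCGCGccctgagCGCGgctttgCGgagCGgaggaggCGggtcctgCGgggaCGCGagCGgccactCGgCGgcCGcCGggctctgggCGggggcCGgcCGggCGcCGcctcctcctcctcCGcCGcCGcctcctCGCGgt
Piezo1: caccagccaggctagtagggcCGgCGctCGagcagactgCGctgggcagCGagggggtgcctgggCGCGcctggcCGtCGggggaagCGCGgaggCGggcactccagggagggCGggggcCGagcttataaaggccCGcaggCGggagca
Trpm7: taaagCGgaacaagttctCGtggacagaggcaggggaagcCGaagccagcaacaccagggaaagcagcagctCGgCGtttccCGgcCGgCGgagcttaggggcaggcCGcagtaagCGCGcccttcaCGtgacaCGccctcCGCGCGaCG
Casq2: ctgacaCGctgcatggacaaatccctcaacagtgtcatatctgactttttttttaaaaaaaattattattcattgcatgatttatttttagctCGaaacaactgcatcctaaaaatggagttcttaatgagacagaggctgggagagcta
Trpm3: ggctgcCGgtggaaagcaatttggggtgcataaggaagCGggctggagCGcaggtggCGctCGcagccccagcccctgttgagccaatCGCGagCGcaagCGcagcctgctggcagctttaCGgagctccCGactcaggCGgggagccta
Trpm1: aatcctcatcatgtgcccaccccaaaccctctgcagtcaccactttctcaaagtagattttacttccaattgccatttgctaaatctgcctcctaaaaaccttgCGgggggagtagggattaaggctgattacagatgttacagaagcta

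These 150-base stretches held 28 CG dinucleotides in Atp2b1, 16 in Piezo1, 17 in Trpm7, 2 in Casq2, 12 in Trpm3 and 1 in Trpm1. Trpm7 and Trpm1, members of the same subfamily at 46.8 TPM and 0, differed in this respect, but Trpm3 was listed at 0 with a window richer in CG than that of Casq2. Windows from 250 bases before to 50 after the start were matched for 58 members and 16526 genes in all, and the CG median was 25.5 for the 18 members above 1 TPM with a window and 9 for the 21 listed at 0. Over the whole table the medians were 23 for 5949 genes above 1 TPM and 4 for 5486 genes at 0, so the direction in the members was also that of the table, and no test was made. At least 10 CG dinucleotides were present in 13 of the 18 members above and in 9 of the 21 at 0, against 88.1% and 25.4% of the same classes over the table. The RefSeq start nearest the main GENCODE start was taken without a distance limit. It lay 47294 bases away for Atp2b4 (above, 4 CG dinucleotides) and 3359 for Cacng8 (at 0, 2 CG dinucleotides), so such windows may miss the main promoter.

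Short motifs were searched on both strands of the same windows, each independently of the others. The E-box form CAGCTG, bound by myogenic factors such as MyoD, was found in 2 of 18 members above 1 TPM and in 8 of 21 at 0. Over the table this form was found in 15.2% of all promoters, 13.7% of genes above 1 TPM and 15.9% of genes at 0. The members above that carried it were Atp2a1 and Orai1. It was found in 8 of 18 members not decided, and in 18 of all 58 members with a window (31.03%), a difference from all promoters that was not tested. The TATA box form TATAAA was found in 2 of the 18 above, Piezo1 and Cacna1d, against 12.9% of all promoters and 7.01% of all genes above 1 TPM. The core site TGACG of CREB, a factor that responds to calcium and cyclic AMP, was found in 7 of the 18 above, against 24.4% of all promoters and 35.3% of all genes above 1 TPM. A match is a description of letters and not a site shown to be bound.

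The pumps that load the endoplasmic reticulum (SERCA pumps) were dominated by Atp2a2, the form that most cells use and the gene of the slow and cardiac pump. Atp2a2 (chromosome 5, 122453513 to 122502225, GRCm38) stood at 479, 494 and 407 TPM in replicates 1 to 3, rank 384 among all genes (460 ± 46.6 TPM, limma adjusted p = 6.41e-13 against 1 TPM). Atp2a1, the pump of fast fibres (chromosome 7, 126445858 to 126463108), stood at 17.1, 20.3 and 27.2 TPM (limma adjusted p = 4.45e-07). Atp2a3, known from blood cells and endothelium, stood at 18.4, 7.46 and 11.99 TPM (limma adjusted p = 7.38e-05). The ranges of Atp2a2 and of its 2 paralogues did not overlap, and Atp2a2 held 93.1%, 94.7% and 91.2% of the summed SERCA level. The gene-level table does not separate the ubiquitous and muscle splice forms of Atp2a2.

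Within each library Atp2a2 exceeded Atp2a1 by 4.43 ± 0.473 on the log2(TPM + 0.1) scale (21.6-fold) and Atp2a3 by 5.27 ± 0.687 (38.5-fold). This was tested as a set of 19 paralogue ratios within libraries, with a two-sided exact permutation test that flips signs of libraries. With 3 libraries the smallest p that test can give is 0.25, which adjusted over the 19 pairs is 0.339, so no ratio can pass a threshold of 0.05, and the size and its SD carry the comparison. In 14 of the 19 pairs all 3 libraries shared a direction and so had this p.

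Atp2a1 is a fibre gene, so fibre markers are given beside it. The summed level of the 15 markers was 290, 322 and 484 TPM, in the same order as Atp2a1, but without Tnnt1, the most abundant (71.1, 140 and 205 TPM), it was 219, 182 and 278 TPM. Single markers did not share an order: of the 14 above 0, 7 were highest in replicate 3, 5 in replicate 1 and 2 in replicate 2. The fast-fibre markers Actn3 (83.5, 92.6 and 64.0 TPM) and Tnnt3 (22.2, 23.7 and 8.07 TPM), among others, were lowest in replicate 3, where Atp2a1 was highest. Tnnc2 (7.0, 16.3 and 77.2 TPM) and Myh1 (1.37, 9.45 and 9.72 TPM), also on the list, rose over the replicates in the same order as Atp2a1. The part of fibre RNA in the level of Atp2a1 was not tested. Of the exon bases of Atp2a1, 21.9% overlap Rabep2 on the opposite strand (6.58, 3.16 and 6.42 TPM), and since the strand setting of the counting is not given, reads of the pair cannot be told apart there.

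The pumps that expel calcium through the plasma membrane were led by Atp2b1, followed by Atp2b4, the 2 forms of most tissues. Atp2b1 (chromosome 10, 98914406 to 99026143), whose promoter is the most CG-rich of those shown, stood at 287, 364 and 326 TPM, rank 515 (limma adjusted p = 1.46e-12). Atp2b4 (chromosome 1, 133699457 to 133801041) stood at 50.6, 63.4 and 56.1 TPM (limma adjusted p = 5.32e-10). Both were lowest in replicate 1 and highest in replicate 2, and their ratio was the steadiest of all pairs, with Atp2b1 higher by 2.50, 2.52 and 2.54 on the log2 scale (5.74-fold). The forms known from the nervous system were low, and neither was decided: Atp2b2 was listed at 0, 0 and 0.48 TPM and Atp2b3 at 4.62, 0 and 0.09 TPM.

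Atp2c1, the pump that fills the Golgi apparatus with calcium and manganese, stood at 37.5, 37.6 and 27.8 TPM (limma adjusted p = 1.33e-08). Its secretory-tissue paralogue Atp2c2 was listed at 0 throughout, so no fold is given. Aste1, on the opposite strand, covers 18.9% of the exon bases of Atp2c1 and stood at 12.1, 5.53 and 11.1 TPM. Together the 9 calcium ATPase genes summed to 894, 987 and 857 TPM. Of them 6 were above 1 TPM, beside 38.4% of all genes and 60.8% of those tested.

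**Figure D2:**
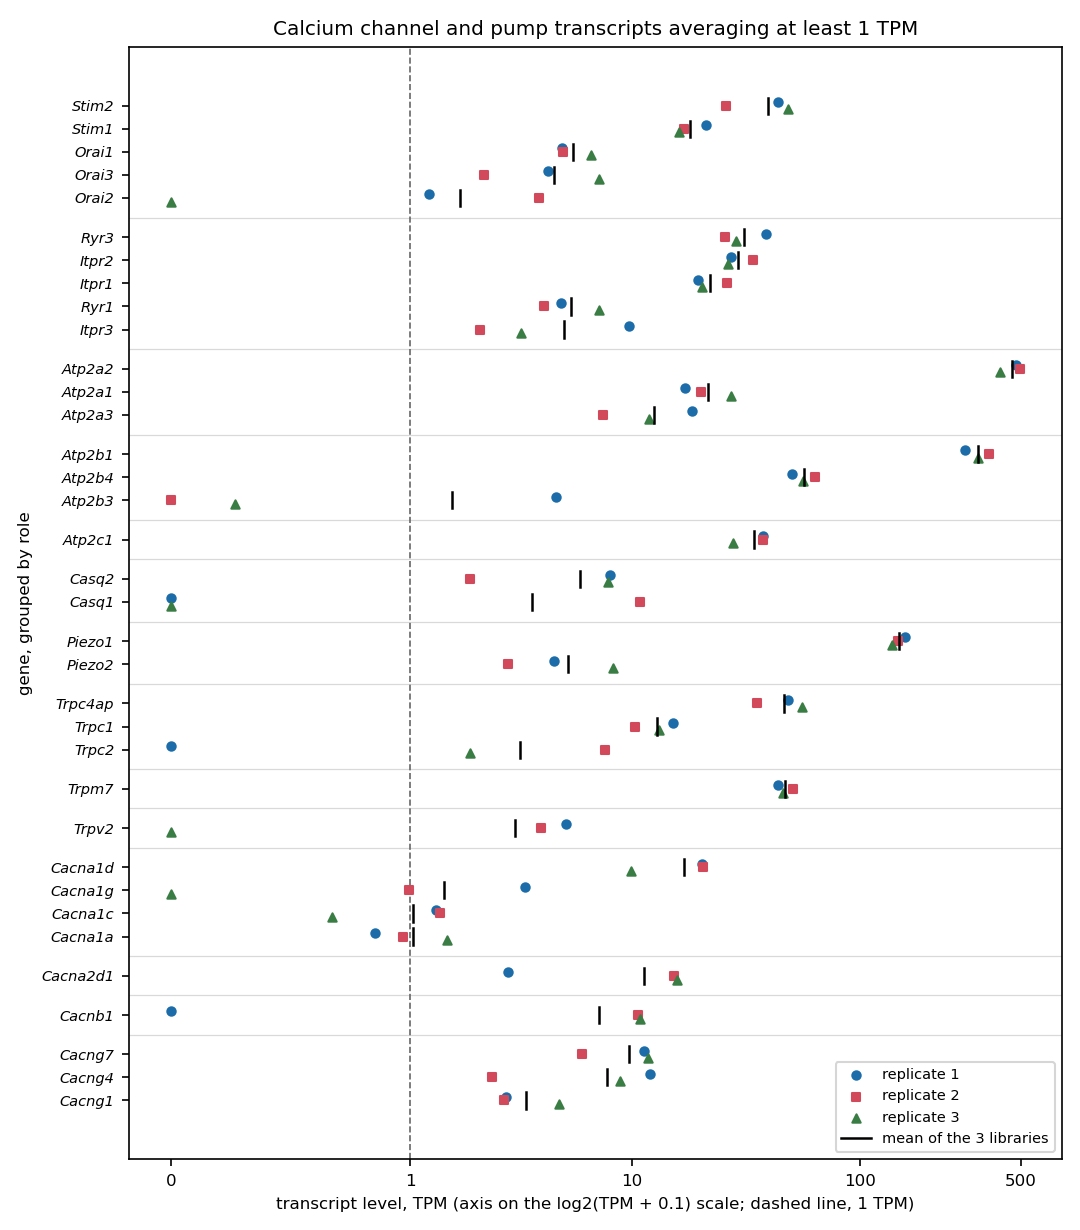
Transcript level in TPM (x axis, on the log2(TPM + 0.1) scale) of each member averaging at least 1 TPM, grouped by role on the y axis, with 1 symbol per replicate and a bar at the mean of the 3 libraries. Atp2a2, Atp2b1 and Piezo1 stand at 460, 326 and 147 TPM, and genes such as Casq1 and Cacnb1 have libraries at 0 beside libraries above 10 TPM.

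Store-operated entry was represented at moderate level by its sensors and at low level by its pores. Stim2 (chromosome 5, 53998499 to 54121057), the sensor that responds to small losses from the store, stood at 43.9, 26.0 and 48.5 TPM (limma adjusted p = 1.92e-08). Stim1 (chromosome 7, 102267806 to 102437319), the main activator of ORAI pores, stood at 21.2, 17.0 and 16.1 TPM (limma adjusted p = 1.23e-06). Stim2 was the higher in each library and the ranges did not overlap, with log2 ratios of Stim1 over Stim2 of -1.05, -0.61 and -1.58 (Stim2 2.11-fold higher). Stim2 was lowest in replicate 2, where the ratio was smallest.

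Among the pores, Orai1 stood at 4.95, 4.99 and 6.61 TPM and was above 1 TPM (limma adjusted p = 0.0159). Orai3 stood at 4.29, 2.2 and 7.2 TPM and was not decided (limma adjusted p = 0.0827, or 0.0364 without replicate 2). Orai1 and Orai3 overlapped in range and changed order between libraries, with a log2 ratio of 0.41 ± 0.659. Orai2 stood at 1.23, 3.91 and 0 TPM and was not decided.

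Both families of channels that release calcium from the store were present, with Ryr3 and not the fibre form Ryr1 leading the ryanodine receptors. Ryr3 (chromosome 2, 112631355 to 113217096), a form found in developing muscle and in brain, stood at 38.7, 25.8 and 28.6 TPM (limma adjusted p = 3.13e-08). Ryr1 (chromosome 7, 29003344 to 29125179), the channel of excitation and contraction in fibres, stood at 4.87, 4.11 and 7.21 TPM (limma adjusted p = 0.0212, or 0.0855 without replicate 3). The 2 ranges did not overlap, and Ryr3 was 5.73-fold higher over Ryr1 (log2 difference of Ryr1 from Ryr3 -2.52 ± 0.503). Ryr2, the cardiac form, was listed at 0, 0.46 and 0.13 TPM and was not decided. Like Atp2a1, Ryr1 was highest in replicate 3, where 7 of the 14 fibre markers above 0 were also highest, and the part of fibre RNA was not tested. Aven, on the opposite strand, covers 4.83% of the exon bases of Ryr3 and stood at 44.5, 28.3 and 14.7 TPM.

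Among the receptors for inositol trisphosphate, which open after hormones or growth factors act on phospholipase C, Itpr2 stood at 27.3, 33.9 and 26.5 TPM (limma adjusted p = 3.17e-08). Itpr1 stood at 19.5, 26.1 and 20.4 TPM (limma adjusted p = 2.76e-07). Both were highest in replicate 2, and the log2 ratio of Itpr1 over Itpr2 was -0.49, -0.38 and -0.38 (Itpr2 1.33-fold higher). This was a small difference with a small spread, and the ranges did not overlap. Itpr3 stood at 9.77, 2.10 and 3.22 TPM and was not decided (limma adjusted p = 0.0931, or 0.0336 without replicate 2). The highest release channel was Ryr3 in replicates 1 and 3 and Itpr2 in replicate 2, so the lead of Ryr3 over Itpr2 did not hold in every library.

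The calsequestrins, calcium buffers of the muscle store, were low and uneven. Casq2, the cardiac and slow-fibre form (chromosome 3, 102086415 to 102146514), stood at 8.02, 1.89 and 7.91 TPM (limma adjusted p = 0.0397, or 0.183 without replicate 1 and 0.158 without replicate 3). Casq1, the fast-fibre form, was listed at 0, 10.9 and 0 TPM and was not decided. The pair changed order in replicate 2, so neither form was the higher throughout.

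The force-gated Piezo1 was the most abundant channel gene of the group. Piezo1 (chromosome 8, 122481698 to 122551329), a plasma membrane channel opened by membrane tension, stood at 157, 146 and 138 TPM, rank 1071 (147 ± 9.85 TPM, limma adjusted p = 7.32e-12). Its paralogue Piezo2 (chromosome 18, 63010213 to 63387183), the channel of touch and position sense in sensory neurons, stood at 4.52, 2.82 and 8.31 TPM (limma adjusted p = 0.0411, or 0.0655 without replicate 1 and 0.220 without replicate 3). Piezo1 exceeded Piezo2 in each library, by 4.92 ± 0.817 on the log2 scale (30.3-fold), and held 96.5% ± 1.98 of their summed level. Ctu2, a tRNA-modifying gene on the opposite strand, covers 24.6% of the exon bases of Piezo1 and stood at 30.8, 32.8 and 20.5 TPM, and without a known strand setting their reads cannot be told apart in the shared part. Piezo1 is also used by endothelial cells, whose 10 markers summed to 210, 243 and 320 TPM. The part of those cells, or of the other cell types on the marker lists, in the level of Piezo1 was not tested.

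Most TRP channels were at or near 0, and Trpm7 and Trpc1 were the 2 of 22 above 1 TPM. Trpm7 (chromosome 2, 126791565 to 126876230), a channel fused to a kinase that also carries magnesium and zinc, stood at 43.6, 50.9 and 45.9 TPM (limma adjusted p = 1.32e-09). It held 99.5% ± 0.638 of the summed TRPM level. Trpm4 was listed at 0, 0.61 and 0 TPM and was not decided, and Trpm8, the cold sensor, at 0.08, 0 and 0 TPM was below 1 TPM (limma adjusted p = 0.0252), a call lost without replicate 2 or 3 (limma adjusted p = 0.508 and 0.532) and without a value above 0 left to test without replicate 1. Trpm1, Trpm2, Trpm3, Trpm5 and Trpm6 were listed at 0 in all libraries.

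In the C and A subfamilies, Trpc1 (chromosome 9, 95705082 to 95750375), a channel linked to store-operated and stretch-evoked currents in muscle, stood at 15.2, 10.3 and 13.3 TPM (limma adjusted p = 2.29e-05). Trpc4 was listed at 2.45, 0 and 0 TPM and was not decided. Trpc2, a pheromone-sensing channel and a pseudogene in humans, was at 0, 7.68 and 1.89 TPM and not decided, and 99.0% of its 31-base words are shared with the readthrough gene Xntrpc, so its level is uncertain. Trpc5, Trpc6, Trpc7 and Trpa1 were listed at 0. The adaptor gene Trpc4ap, no channel itself, stood at 48.5, 35.6 and 55.8 TPM (limma adjusted p = 3.40e-09).

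Of the 6 TRPV genes, 0 were above 1 TPM by limma, and 0 reached an unadjusted p under 0.05 in that direction. Trpv2, a channel studied in dystrophic muscle, stood at 5.11, 3.97 and 0 TPM and was not decided. The osmosensitive Trpv4 was listed at 0, 1.04 and 0 TPM and the skin channel Trpv3 at 0, 0.17 and 0.07 TPM, neither decided (limma adjusted p = 0.0637 for Trpv3, or 0.00870 without a variance trend). Trpv1, the heat and capsaicin receptor, and the epithelial calcium channels Trpv5 and Trpv6 were listed at 0 in all libraries.

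Voltage-gated calcium channels were present as a sparse set of subunits in which the fibre's own pore was at 0. A channel consists of a pore (Cacna1), a cytosolic beta subunit, an extracellular alpha2delta subunit and, in skeletal muscle, a gamma subunit. Of 26 such genes, 4 were above 1 TPM, of which 2 are glutamate receptor relatives (Cacng7 and Cacng4), 1 was below, 11 were not decided and 10 were listed at 0. Their summed level was 57.4, 61.9 and 67.6 TPM.

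Among the 10 pores, Cacna1d (chromosome 14, 30039939 to 30491455), an L-type pore that opens at low voltage in endocrine and pacemaker cells, was the one above 1 TPM, at 20.4, 20.5 and 9.98 TPM (limma adjusted p = 6.44e-06). It held 82.1% ± 4.90 of the summed pore level, and was lower in replicate 3 than in the other libraries. Cacna1s (chromosome 1, 136052750 to 136119822), the voltage sensor of adult fibres, was listed at 0 in all libraries, as were Cacna1e, Cacna1f and Cacna1i. The cardiac and smooth muscle pore Cacna1c stood at 1.32, 1.38 and 0.40 TPM, the neuronal Cacna1a at 0.67, 0.92 and 1.49 TPM and Cacna1b at 0.87, 0 and 0.04 TPM. These 3 were not decided. Of the low-voltage (T-type) pores, Cacna1g stood at 3.36, 0.98 and 0 TPM and was not decided, and Cacna1h, at 0, 0 and 0.05 TPM, was below 1 TPM (limma adjusted p = 0.0204). The call on Cacna1h was lost without replicate 1 or 2 (limma adjusted p = 0.465 and 0.492), and without replicate 3 it had no value above 0 to test.

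Of the alpha2delta subunits, Cacna2d1, the muscle form, stood at 2.84, 15.3 and 15.9 TPM (limma adjusted p = 0.00199), with replicate 1 far below the other libraries. Cacna2d4 was listed at 0, 0.95 and 0 TPM and was not decided, and Cacna2d2 and Cacna2d3 were listed at 0. Cacnb1, the beta subunit of skeletal muscle, showed the same split, at 0, 10.7 and 10.9 TPM, and was not decided (limma adjusted p = 0.595) except without replicate 1 (3.94e-06). Cacnb2, Cacnb3 and Cacnb4 averaged 0.23, 0.42 and 0.36 TPM, each with 1 library above 0, so 0 of 4 beta subunits were above 1 TPM by limma and 0 had an unadjusted p under 0.05.

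The gamma group covers the skeletal muscle subunit Cacng1 and relatives that mainly accompany glutamate receptors in neurons. Cacng7 stood at 11.3, 6.07 and 11.9 TPM (limma adjusted p = 0.000388) and Cacng4 at 12.01, 2.4 and 8.89 TPM (limma adjusted p = 0.0108, or 0.0845 without replicate 1). Both belong with the glutamate receptor relatives, and both were lowest in replicate 2. Cacng1 stood at 2.76, 2.71 and 4.77 TPM and was not decided (limma adjusted p = 0.175, or 0.0152 without a variance trend), and it was lower than Cacng7 in each library, with a log2 ratio of -1.48 ± 0.458. Cacng3 was listed at 0, 0 and 2.08 TPM, and Cacng2, Cacng5, Cacng6 and Cacng8 at 0 in all libraries. Of the 6 neuronal markers, Map2 passed (155 ± 1.99 TPM) and Rbfox3 was listed at 0, and their summed level was 161, 160 and 182 TPM. Their part in the gamma subunit levels was not tested.

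**Figure D3:**
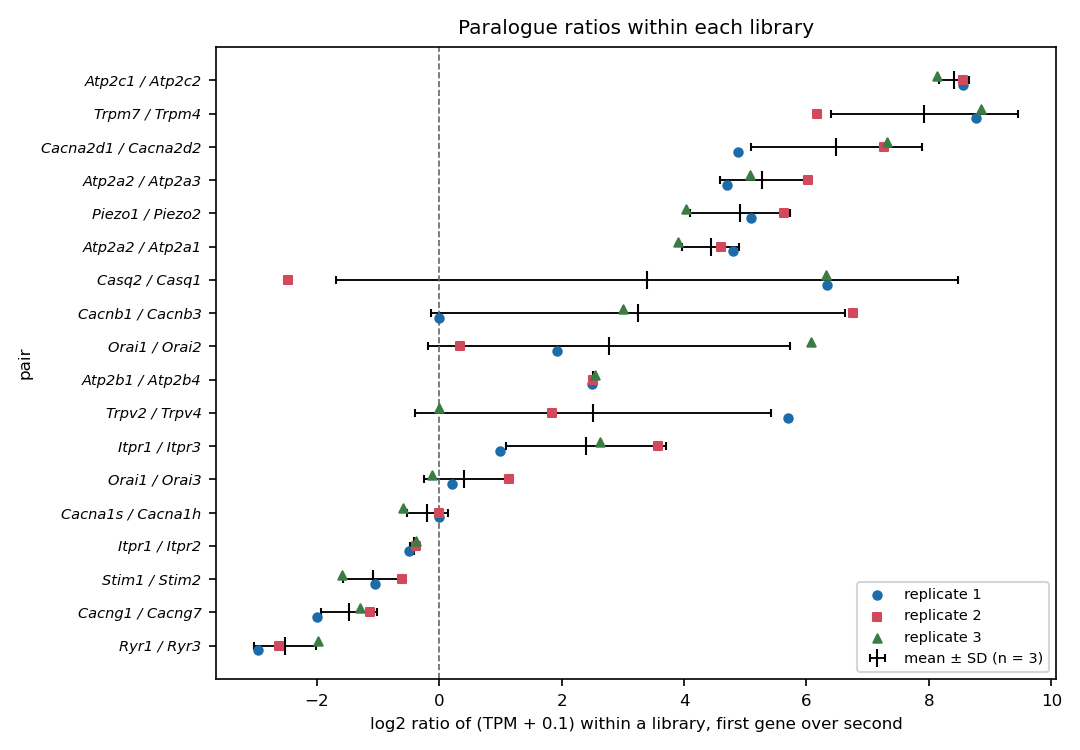
Log2 ratio of (TPM + 0.1) of the first gene over the second (x axis) for the paralogue pairs described (y axis), with 1 symbol per replicate and a bar for mean ± SD (n = 3). Pairs with abundant members, such as Atp2b1 and Atp2b4 (2.52 ± 0.0190), vary little, while the widest spread is that of Casq2 and Casq1 (3.40 ± 5.08), in which Casq1 is listed at 0 in 2 libraries. A ratio to a value of 0 depends on the pseudocount.

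The paralogue ratios separated into steady and unsteady pairs. In 9 of 14 roles the same gene was the highest member in every library: Stim2, Atp2a2, Atp2b1, Atp2c1, Piezo1, Trpc4ap, Trpm7, Cacna1d and Cacna2d1. In the other 5 roles, the release channels, calsequestrins, TRPV channels and the beta and gamma subunits, the lead changed with the library. The plot of ratios shows that the pairs without a shared direction were Orai1 and Orai3, Casq2 and Casq1, Trpv2 and Trpv4, Cacnb1 and Cacnb3, and Cacna1s and Cacna1h. In 4 of these, all but the ORAI pair, at least 1 gene was listed at 0 in at least 1 library.

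Spread between libraries followed level. The 17 members averaging at least 10 TPM had a median SD of 0.25 on the log2(TPM + 0.1) scale, from 0.096 to 1.39, and the median over all 6765 genes of that level was 0.35. For the 18 members of 1 to under 10 TPM the median SD was 1.14, and for all 4553 such genes it was 2.32. A value of 0 in at least 1 library was present in 7 of those 18 members and in 46.6% of all genes of that level. The 17 abundant members were highest in replicate 1 in 5 cases, in replicate 2 in 8 and in replicate 3 in 4, so no library was high throughout.

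Other genes of calcium handling were read from the same fit, as 10 lists with 96 genes in the table. Of these, 54 were above 1 TPM, 2 were below, 22 were not decided and 18 were listed at 0, with a median of 14.8 TPM. The 96 genes included 78 that were tested. Over the whole table, 38.4% of all genes and 60.8% of those tested were above 1 TPM. The counts of each list given here and below are to be read beside these shares, and no list was tested against them. Proteins that bind calcium inside the endoplasmic reticulum were the most abundant list, with 10 of 10 above 1 TPM and a median of 556 TPM. They were led by Hspa5 (5539 ± 131 TPM), calreticulin (Calr, 2777 ± 475 TPM) and Hsp90b1 (1728 ± 28.3 TPM), which are also folding chaperones. The small membrane proteins that restrain SERCA pumps in fibres and heart stood in contrast: sarcolipin (Sln) was listed at 0, and phospholamban (Pln) at 0, 0 and 3.05 TPM was not decided, so 0 of 2 were above 1 TPM by limma, and 0 at an unadjusted p under 0.05.

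Inhibitors of voltage-gated channels were more abundant than the channels themselves. Of the RGK proteins, small GTP-binding proteins that bind beta subunits and shut voltage-gated channels down, 3 of 4 were above 1 TPM. Gem stood at 1207, 1298 and 1174 TPM, Rem1 at 133, 105 and 145 TPM and Rrad at 51.5, 38.2 and 22.1 TPM. Rem2 was listed at 0. The lowest library of Gem lay above the summed level of all 26 channel subunits in every library (57.4 to 67.6 TPM). Rem1 also lay above that range in every library, and Rrad lay below it in every library.

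The proteins that couple the fibre membrane to the store were present in part. Of 10 triad and release channel partners, 4 were above 1 TPM and 1 was below, with a median of 2.85 TPM. Fkbp1a, which stabilises release channels and binds many other proteins, averaged 235 ± 29.3 TPM, Jsrp1 106 ± 19.1 TPM and aspartyl hydroxylase and junctin (Asph) 34.1 ± 8.10 TPM. The histidine-rich store protein Hrc, at 0, 0.12 and 0 TPM, was below 1 TPM (limma adjusted p = 0.0316). Of 10 store-operated entry regulators, 5 were above 1 TPM, led by the scaffold Homer1 (307 ± 39.2 TPM), Tmem66 (also called Saraf, which switches store-operated entry off, 247 ± 36.7 TPM) and the membrane tether Esyt2 (129 ± 12.4 TPM).

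**Figure D4:**
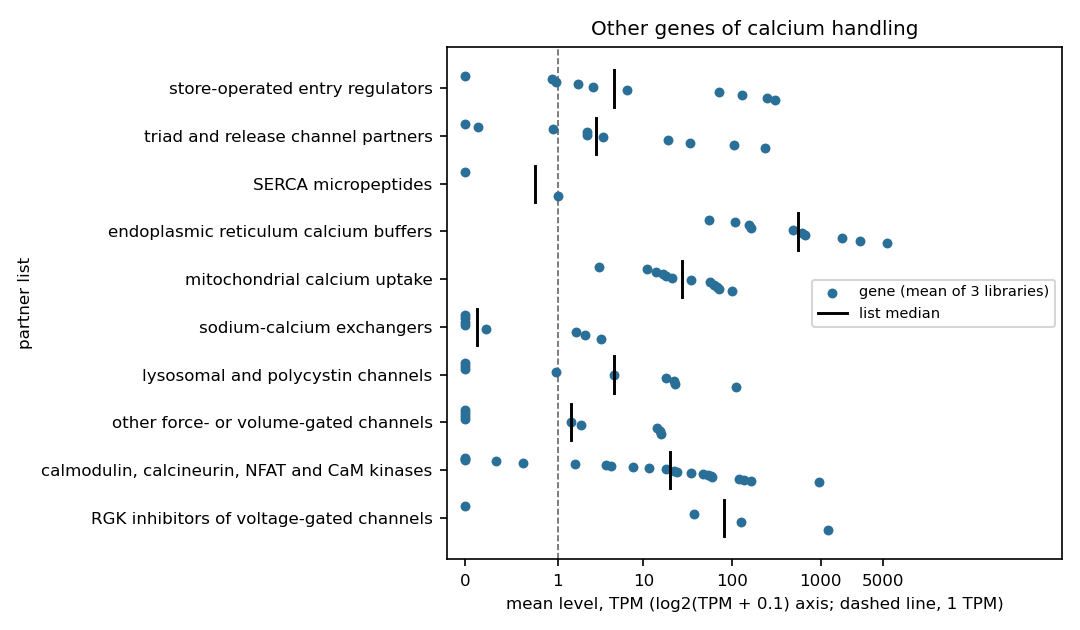
Mean level in TPM (x axis, on the log2(TPM + 0.1) scale) of each gene of 10 lists of calcium handling genes (y axis), with a bar at the median of each list. The reticulum buffers lie highest (median 556 TPM) and the sodium-calcium exchangers lowest (median 0.035 TPM).

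Transcripts of exchangers that expel calcium in return for sodium were far fewer than those of the plasma membrane pumps. Of 8 sodium-calcium exchanger genes, 0 were above 1 TPM by limma (0 at an unadjusted p under 0.05), 4 were listed at 0, and the highest were Slc8a2 (3.26 ± 2.08 TPM), Slc8a3 (2.12 ± 1.75 TPM) and Slc24a2 (1.64 ± 0.865 TPM), none decided. Slc24a3, at 0, 0.21 and 0 TPM, was below 1 TPM (limma adjusted p = 0.0464). The 8 genes summed to between 4.72 and 10.2 TPM per library, whereas the 4 plasma membrane pumps summed to 342, 428 and 383 TPM.

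Genes of mitochondrial calcium uptake and lysosomal channels were also present. Of 12 mitochondrial genes 11 passed, with a median of 27.7 TPM, and the highest were the outer membrane pores Vdac1 (101 ± 26.6 TPM) and Vdac3 (72.6 ± 30.1 TPM). Of 9 lysosomal and polycystin genes 4 passed, the highest being the cilium and reticulum channel Pkd2 (113 ± 8.97 TPM), the lysosomal channel Tpcn1 (23.0 ± 6.22 TPM) and Pkd1 (22.4 ± 5.86 TPM). Of 9 other force-gated or volume-gated channels 3 passed, namely Tmem63b (15.9 ± 3.42 TPM), Lrrc8a (15.4 ± 4.71 TPM) and Tmem63a (14.1 ± 4.46 TPM), and all 3 lay below Piezo1 in every library.

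Among genes that read the calcium signal, 14 of 22 passed, and the list median was 20.2 TPM. Calmodulin, the main calcium sensor of the cytosol, was represented by Calm2 at 967 ± 36.5 TPM. Rcan1, an inhibitor and target of the calcium-activated phosphatase calcineurin, averaged 163 ± 21.9 TPM. Camk2a, Camk2b and Nfatc4, named after their values were seen, were listed at 0.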

How the data were processed

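The authors deposited 1 table of TPM with 1 column per library, each summing to the same total. Per the submitters' processing notes, reads were processed against mm10, and RSEM 1.2.3, Bowtie 0.12.9 and CASAVA 1.8 are named without their roles. The deposited table's name reads as if mitochondrial genes were removed and TPM renormalised, which would raise the other values, and 0 symbols in it start with mt-. The sources used here give no annotation, strand setting or depth.

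Levels were tested on log2(TPM + 0.1), which understates the distance of a gene from 1 TPM, most for the lowest genes. The fit used limma 3.58.1 in R 4.3.3: an intercept against 1 TPM, two-sided, variance trend, Benjamini-Hochberg adjustment over 12822 genes, threshold 0.05. The test was checked on simulated data. Paralogue ratios used an exact sign-flip permutation test. Positions, exon overlaps and shared 31-base words came from GENCODE M21 (73 of 73 members matched) and promoters from RefSeq (GRCm38.p6, 58 members), at the RefSeq start nearest that of the longest principal GENCODE transcript.

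The members, lists and pairs were chosen with earlier results of these data known. All members are named, and from each other list the 3 highest and any gene below 1 TPM, except a few items not reported here. Values per library are given for members of at least 10 TPM and the highest of each role. Alternatives covered pseudocounts, filters, scaling, the variance trend and each replicate left out.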

Additional observations from a re-analysis of the deposited data

How the results depend on the processing

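The number of members above 1 TPM was 23, lay between 20 and 25 under all alternatives run, and 19 of the 23 genes stayed above in every alternative. The other 4 were Casq2, Piezo2, Cacng4 and Ryr1. Casq2 and Piezo2 were also lost with a pseudocount of 1 (limma adjusted p = 0.0671 and 0.0661) and with no filter (0.0699 and 0.0597). Counts below 1 TPM depended on the settings. For members the 2 genes became 0 with a pseudocount of 0.01 (1 at an unadjusted p under 0.05 by limma), 0 when genes averaging under 0.1 TPM were dropped (0 unadjusted), 30 with no filter, where genes at 0 are tested, and 5 without a variance trend. For all genes 279 became 3 (58 unadjusted), 0 (0 unadjusted), 8056 and 478 in the same order, and 451 with a pseudocount of 1. For the other calcium genes 2 became 0 (0 unadjusted), 0 (0 unadjusted) and 21 in the first 3 settings. Leaving out any 1 replicate gave between 0 and 0 genes below 1 TPM in each of the 3 sets (0 unadjusted), where 2 libraries were fitted. Rescaling libraries to equal medians changed no member's call. Ratios to genes at 0 moved with the pseudocount. No paired analysis was possible because the libraries form 1 group. Depth is unknown, so values of 0 carry no detection limit.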
